A study of Mus musculus with 9 samples.

Results

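Arginine and polyamine metabolism was followed here through 10 genes, Arg1, Arg2, Nos2, Ass1, Slc7a2, Slc7a1, Odc1, Srm, Sms and Sat1, of the 18193 genes that a probe set of the array names alone. The members were chosen from the names of the pathway with results of these arrays already known, so their signals are given as a description, with no p-value and with nothing supported by them. The array reads a transcript with a probe set, several short probes of the same target, and a probe set was used when its annotation gave exactly 1 gene symbol. By that rule 9 of the 10 genes were measured, by 17 probe sets, and 8 genes passed the filter on detection, of 11796 genes that passed it in all.

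RNA of SVFs (stromal vascular fractions, which hold the stromal, vascular and immune cells of fat freed by enzymes, without the fat cells) was taken from the inguinal subcutaneous fat of wild type Balb/c mice aged 10 weeks. Each of the 9 arrays held the SVF of 1 mouse, with 3 mice on day 0, 3 on day 1 and 3 on day 3 after surgical injury of the fat. The paper describes the procedure, priming, as mincing of the fat together with ligation of its feeding artery, while the labels name injury and the priming day only. Day 0 is taken as the nonprimed group, for which the paper describes a sham operation, while the labels of the day 0 arrays name none.

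Arginine is the shared substrate of competing enzymes. Arginases split it into urea and ornithine, whereas nitric oxide (NO) synthases turn it into NO and citrulline, and macrophages are known for using either route according to how they are activated. Ornithine feeds the polyamines putrescine, spermidine and spermine, which bind nucleic acids and are needed by growing cells, and it can also be turned into proline, an amino acid in which collagen is rich.

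Of the 45101 probe sets, 25677 to 26299 were present on the day 0 arrays, more than the 24106 to 25557 on day 1 and the 25069 to 25292 on day 3. The median signal of an array was 106 to 122 on day 0, 90.0 to 103 on day 1 and 104 to 109 on day 3, and the 3'/5' ratio of the actin control lay between 1.15 and 1.32. Markers of the cells of an SVF were detected: all 10 stromal, 8 endothelial and 5 leukocyte markers passed the detection filter. Of the 4 adipocyte markers with a probe set of their own 2 passed, and Lep and Retn were absent on every array. Of the skeletal muscle, epithelial and erythroid markers with a probe set of their own, 3 of 5, 1 of 6 and 1 of 2 passed. Over the 11796 genes the median log2 change from day 0 was -0.13 on day 1 and -0.03 on day 3, and the median change from day 1 to day 3 was 0.09. A gene was called when limma's Benjamini-Hochberg adjusted p over all these genes was under 0.05. On day 1, 10.7% of the genes were called higher and 17.9% lower than on day 0, and on day 3 these shares were 13.6% and 12.5%. From day 1 to day 3, 9.66% were called higher and 4.54% lower. The split depended on the scaling on day 1, where 1268 genes were higher and 2110 lower as deposited, 1699 and 1272 after median centring, and 1397 and 1496 after quantile normalization. From day 1 to day 3 the 1140 higher and 536 lower genes became 659 and 860 after median centring.

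Against these shares, 2 of the 8 tested members were called higher on day 1, Arg1 and Arg2, and the other 6 were not called. On day 3, 3 were called higher (Arg1, Arg2 and Srm) and 1 lower (Sat1). Between day 1 and day 3 the 1 call was the lower signal of Sat1. The median log2 change of the 8 members was 0.18 on day 1, 0.13 on day 3 and -0.01 from day 1 to day 3. These counts are not read as a result, because the members were chosen with these days known. Arg1 also passed the filter only through its present calls on days 1 and 3. The 10 genes differed widely among themselves: the cytosolic and mitochondrial arginases were far higher after injury, and the inducible NO synthase was not detected. The tested probe sets of the transporters and the first polyamine enzyme overlapped with day 0 on both later days and were not called.

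**Figure D1:**
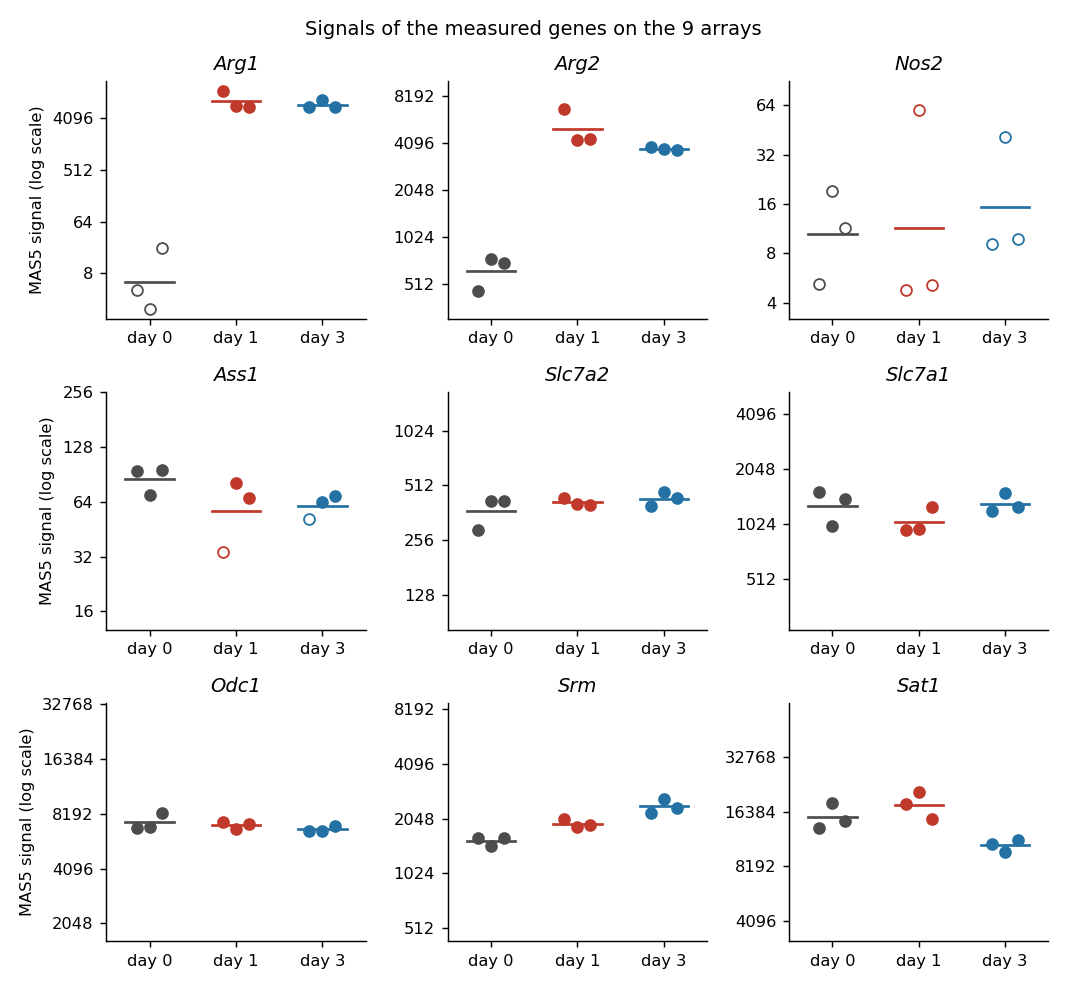
MAS5 signal of the 9 measured genes (vertical axis, log scale, with a range of its own for each gene) on the 3 arrays of each day (horizontal axis). Filled points were called present, open points absent or marginal, and the bar is the mean on the log scale. Arg1 went from signals of 1.92 to 22.2, all called absent, on day 0 to 6449 to 12316 on days 1 and 3, whereas Nos2 was absent on all 9 arrays.

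Arg1 encodes the cytosolic arginase, which is abundant in liver and is induced in myeloid cells. Its probe set, 1419549_at, gave signals of 4.01, 1.92 and 22.2 on the day 0 arrays. All 3 were called absent, with detection p-values of 0.568, 0.781 and 0.112 from the authors' files. On day 1 its signals were 12316, 6798 and 6539, and on day 3 they were 6449, 8670 and 6581. All 6 arrays after injury called it present with the detection p-value of 0.000244, so no array of day 0 overlapped with any later one. Because day 0 had no present call, the fold depends on the floor taken for that day. The floor was, on each day 0 array, its own signal or the array's lowest present signal (8.43 to 10.1), whichever was higher. Above this floor the later mean stood 671-fold on day 1 and 588-fold on day 3. Probe sets can be called absent at higher signals, so this floor is not a limit of detection and the folds are no lower bound. The fitted log2 changes, 10.53 ± 0.65 (SE) on day 1 and 10.34 ± 0.65 on day 3, use the day 0 signals as they are. They fell to 6.82 and 6.63 when 64 was added to every signal before the log2 step. Days 1 and 3 overlapped, with means of 8551 ± 3263 (SD, n = 3) and 7233 ± 1246. Their log2 difference, day 3 minus day 1, was -0.19 with a 95% interval of -1.62 to 1.24. In the RNA of a cell mixture, more cells of a type and more RNA per cell cannot be told apart, which holds for all values here.

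Arg2 encodes the mitochondrial arginase, which is made in many tissues outside the liver. Unlike Arg1 it was detected before injury, since 1418847_at was present on all 9 arrays. Its signals were 461, 741 and 696 on day 0. The day 1 arrays gave 6818, 4286 and 4329, and the day 3 arrays gave 3870, 3743 and 3701. Every array after injury lay above every day 0 array, and each day 3 array lay below each day 1 array. The log2 change from day 0 was 3.02 ± 0.20 on day 1, which is 8.11-fold with a 95% interval of 5.95 to 11.0. On day 3 it was 2.61 ± 0.20, or 6.09-fold with an interval of 4.47 to 8.29. The log2 difference of day 3 from day 1 was -0.41 with an interval of -0.86 to 0.03 and was not called. The second probe set of Arg2, 1438841_s_at, which can be shared by similar transcripts, had mean signals of 408 on day 0, 3713 on day 1 and 2398 on day 3. Its log2 changes of 3.16 ± 0.17 and 2.56 ± 0.17 were close to those of the first probe set, and its decrease from day 1 to day 3 was 0.60 on the log2 scale and was called when probe sets were fitted one by one.

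Both arginases were therefore higher in every mouse of days 1 and 3 than in any mouse of day 0, but their day 0 signals differed in detection. For Arg1 the fold above the floor on day 1, 671-fold, stands beside 8.11-fold for Arg2. No exact size is given for the excess of Arg1, because its day 0 signals were not detected and their log2 balance with Arg2 had an SD of 1.81 among the 3 mice. The likeness of the arginases over the 9 arrays was a Pearson r of 0.969, and its points share the difference between the days.

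Nos2 encodes the inducible NO synthase, which competes with the arginases for arginine in activated macrophages. Its single probe set, 1420393_at, was called absent on 9 of 9 arrays, with detection p-values between 0.334 and 0.87. The signals were 5.19, 19.2 and 11.5 on day 0. They were 4.81, 59.9 and 5.15 on day 1 and 9.16, 41.0 and 9.78 on day 3. The days overlapped throughout, and 1 array of each day stood above the others of its day. Since no array detected the probe set, Nos2 was not tested and no fold is given. A probe set that is not detected gives no lower level for the transcript, only that it was not detectable with these probes.

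Ass1 encodes argininosuccinate synthase, the step that starts the rebuilding of arginine from citrulline. Its probe set 1459937_at lay close to the limit of detection, with present calls on 7 of 9 arrays. Signals were 95.1, 69.8 and 95.3 on day 0, 34.1, 80.7 and 67.2 on day 1, and 51.6, 63.6 and 68.7 on day 3. The day 1 arrays overlapped with day 0, whereas the day 3 arrays all lay below it. The log2 changes were -0.59 ± 0.33 on day 1 and -0.50 ± 0.33 on day 3, neither was called, and the intervals of -1.31 to 0.13 and -1.21 to 0.22 hold both a decrease and no difference. A further probe set that names Ass1 together with another gene was not used.

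Slc7a2 and Slc7a1 encode CAT-2 and CAT-1, cationic amino acid transporters that carry arginine into the cell. CAT-2 is known as the inducible transporter of macrophages and CAT-1 as the widely expressed one. Slc7a2 was read from 1436555_at, the one of its 4 probe sets that passed the filter, and its mean signals were 377 ± 74.4 (SD, n = 3) on day 0, 413 ± 19.9 on day 1 and 433 ± 36.8 on day 3. Across all arrays they ranged from 291 to 470, and the days overlapped. The log2 changes of 0.15 ± 0.16 and 0.22 ± 0.16 were not called, with intervals of -0.21 to 0.50 and -0.14 to 0.57. Slc7a1, read from 1454991_at, had mean signals of 1307 ± 277, 1060 ± 181 and 1331 ± 169. Its log2 changes of -0.29 ± 0.18 on day 1 and 0.04 ± 0.18 on day 3 were not called either, and the days overlapped here too. A second probe set of Slc7a1, 1454992_at, gave -0.23 and 0.17. By this probe set all day 3 arrays lay above all day 1 arrays, a difference of 0.40 ± 0.16 that was not called. By the probe sets used for the 2 genes, the 95% intervals reached a log2 change of 1 in neither direction on either day. The other probe sets of Slc7a2 did not pass the filter and were not tested. Of these, 1422648_at, present on 2 arrays, had mean signals of 40.5, 72.6 and 55.2, with every later array above every day 0 array. The means were 43.6, 53.6 and 42.4 for 1426008_a_at and 16.6, 23.2 and 33.4 for 1450703_at.

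**Figure D2:**
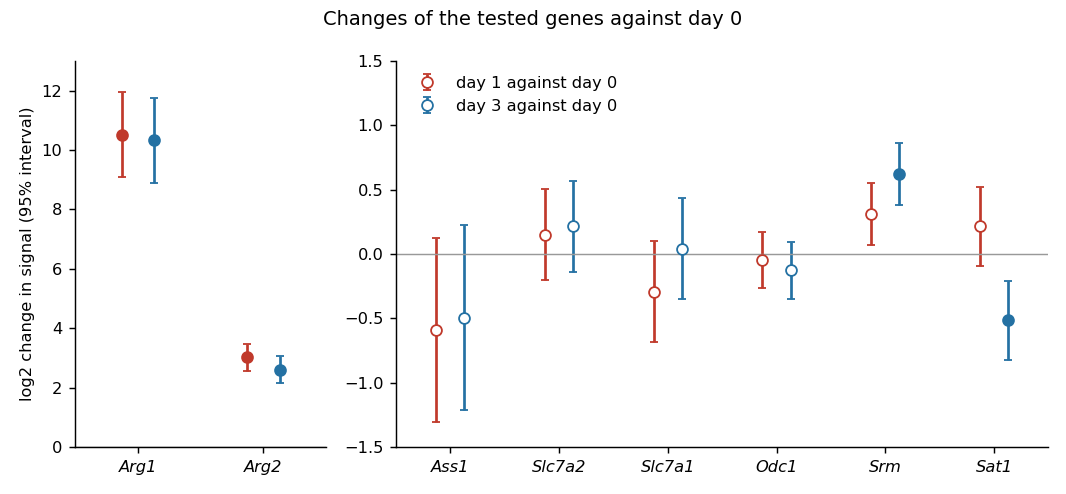
Log2 change in signal from day 0 (vertical axis) of the 8 tested genes on day 1 and day 3, with 95% intervals from limma; filled points were called, and the left panel has a wider axis. Arg1 and Arg2 lay at 10.53 and 3.02 on day 1, and the other 6 genes between -0.59 and 0.62 on both days.

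Odc1 encodes ornithine decarboxylase, which makes putrescine from ornithine and is the regulated entry to the polyamines. The brightest probe set, 1437711_x_at, gave 6837, 6986 and 8318 on day 0. The signals were 7402, 6795 and 7218 on day 1, and 6560, 6622 and 7009 on day 3. The mice of the 3 days overlapped in both comparisons with day 0, and the signals stayed within a narrow band. The log2 change was -0.04 ± 0.10 on day 1, with a 95% interval of -0.26 to 0.17, and -0.13 ± 0.10 on day 3, with an interval of -0.35 to 0.09. The sign on day 1 turned to 0.08 after median centring, so no direction can be given. The _x_ in the name of this probe set marks probes that can cross-hybridize. The other probe sets of Odc1 were not called either, with log2 changes of -0.08 and -0.27 (1427364_a_at) and of 0.01 and -0.16 (1438761_a_at). By 1438761_a_at all day 3 arrays lay below all day 1 arrays, a difference of -0.16 ± 0.10 that was not called.

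Srm encodes spermidine synthase, which builds spermidine from putrescine. Its probe set 1421260_a_at gave 1594, 1456 and 1604 on day 0. Day 1 signals were 2035, 1834 and 1899, and day 3 signals were 2211, 2636 and 2335. The 3 days did not overlap and stood in the order day 0, day 1, day 3. On day 3 the log2 change was 0.62 ± 0.11, which is 1.54-fold with a 95% interval of 1.30 to 1.82, and it was called. The steps of 0.31 ± 0.11 from day 0 to day 1 and 0.31 ± 0.11 from day 1 to day 3 were not called, although their intervals, 0.07 to 0.55 and 0.07 to 0.56, lay above 0. With median centring the day 1 change was 0.43 and was called. Sms, the spermine synthase gene of the next step, has no value here, since all 3 of its probe sets also name a further gene.

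Sat1 encodes the spermidine/spermine N1-acetyltransferase, which marks polyamines for breakdown and export. Probe set 1420502_at gave 13359, 18309 and 14623 on day 0, 17988, 20855 and 14910 on day 1, and 10893, 9846 and 11402 on day 3. All day 3 arrays lay below all others, whereas days 0 and 1 overlapped. The log2 change was 0.21 ± 0.14 on day 1, which was not called. On day 3 it was -0.52 ± 0.14 from day 0, a 1.43-fold decrease, and -0.73 ± 0.14 from day 1, a 1.66-fold decrease, and both were called. The first of these calls rested on single mice: it was lost without replicate 2 of day 0 (-0.39), replicate 1 of day 3 (-0.53) or replicate 2 of day 3 (-0.46). The decrease from day 1 was called in each of 20 limma fits without a fold limit.

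The enzyme that makes putrescine and the enzyme that removes the later polyamines thus differed in their course. The log2 balance of Odc1 over Sat1 was 0.09, -0.33 and 0.24 on day 0, -0.22, -0.56 and 0.01 on day 1, and 0.33, 0.48 and 0.35 on day 3. Only its shifts between days can be read, since signals of different probe sets are not on 1 scale. The shift from day 0 was -0.26 on day 1 and 0.39 on day 3, and the shift from day 1 to day 3 was 0.65, with day 3 above each array of the other days. That shift came mostly from Sat1, which changed by -0.73 between these days against -0.08 for Odc1. For the transporters, the balance of Slc7a2 over Slc7a1 shifted by 0.44 on day 1 and by 0.17 on day 3, both below the day 0 SD of 0.57.

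**Figure D3:**
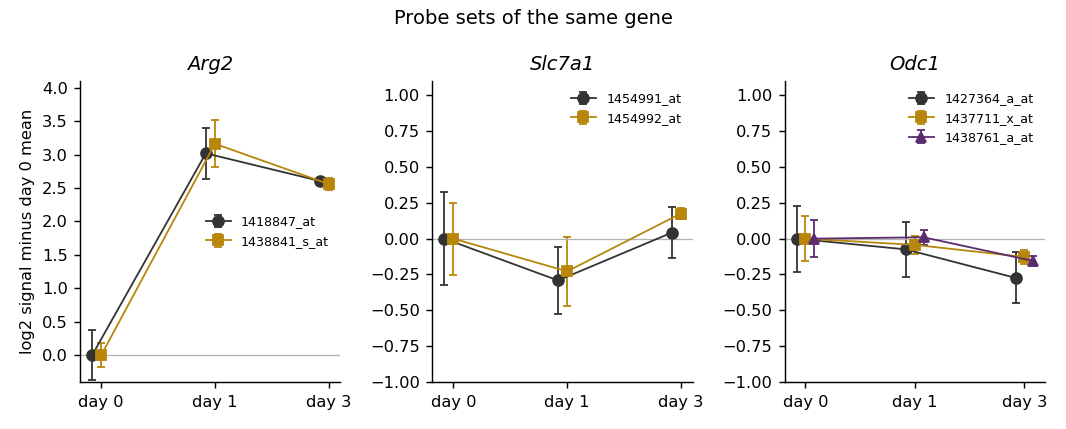
Log2 signal minus the day 0 mean (vertical axis) on each day for the 3 genes with more than 1 probe set past the filter; points are means of 3 arrays and bars their SD. The 2 probe sets of Arg2 lay at 3.02 and 3.16 on day 1, whereas those of Odc1 stayed between -0.27 and 0.01 after injury.

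The other genes of these pathways were taken from lists made for function. Of 58 listed genes 44 were tested, and 9 were called on day 1 (5 higher, 4 lower) and 11 on day 3 (8 higher, 3 lower). These are 20.5% and 25% of the tested genes, against 28.6% and 26.1% of all genes called in either direction. The median log2 changes of the 44 genes were -0.09 and 0.01. Neither share exceeded that of all genes, and the values that follow belong to single genes. All p-values given for them are adjusted p-values from limma over all genes.

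Among 13 tested genes of arginine transport, the urea cycle and creatine, 2 were called higher and 1 lower on day 1, and 3 were called higher on day 3. Slc7a7, the light chain of the y+LAT1 exporter of cationic amino acids, rose from 413 ± 33.4 (SD, n = 3) to 851 ± 125 on day 1 and 940 ± 59.3 on day 3 (log2 1.04 ± 0.14, adjusted p = 0.000322, and 1.19 ± 0.14, adjusted p = 0.000104). Its partner Slc3a2, the heavy chain 4F2hc, changed by 0.41 ± 0.11 (adjusted p = 0.0186) and 0.35 ± 0.11 (adjusted p = 0.0361). The day 3 call of Slc3a2 was lost without replicate 1 or 2 of day 0 or any day 3 array (0.30 to 0.37), without the detection filter and without the variance trend. Its day 1 call was lost after quantile normalization (0.28, adjusted p = 0.101), with only the 6 arrays compared, and without replicate 1 of day 0 (0.36) or of day 1 (0.36). Creatine is made from arginine and glycine by Gatm and then Gamt. Gatm stood at 0.43 ± 0.19 on day 1, not called, with a 95% interval of 0.02 to 0.84. Without replicate 3 of day 1 this change was 0.58 and was called. On day 3 Gatm was higher by 0.92 ± 0.19 (adjusted p = 0.00446), but its step of 0.49 ± 0.19 from day 1 was not called. Gamt fell by 0.79 ± 0.14 on day 1 (adjusted p = 0.00222) and stood at -0.02 on day 3. The arginine sensor Castor1 (-0.45 and -0.25) and the ornithine carrier Slc25a15 (-0.26 and -0.22) were not called. Otc, Cps1, Nags and Agmat did not pass the detection filter.

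Of 11 tested genes of NO synthesis, its cofactor and its target, 2 were called higher and 2 lower on day 1, and 1 higher and 2 lower on day 3. Nos3, the endothelial NO synthase and the only synthase gene that passed the filter, gave signals of 531, 536 and 715 on day 0, 469, 490 and 524 on day 1, and 682, 580 and 623 on day 3. Its log2 changes of -0.25 ± 0.14 and 0.09 ± 0.14 were not called. Gch1 makes the cofactor tetrahydrobiopterin that every NO synthase needs. It rose by 1.15 ± 0.15 on day 1 (2.22-fold, adjusted p = 0.000372) and fell by 1.24 ± 0.15 from day 1 to day 3 (adjusted p = 0.000474), back to -0.09 against day 0. Its other probe set, 1429692_s_at, stood at 0.13 on day 1, so the probe sets of Gch1 did not show the same change. Ddah1, which breaks down methylarginines that inhibit NO synthases, was called absent on the day 0 arrays by its brightest probe set, with signals of 114 to 139 that lay above the lowest present signal of each array. Its estimated folds by that probe set were 3.27 on day 1 (log2 1.71 ± 0.22) and 6.93 on day 3 (log2 2.79 ± 0.22). No p-value is given for them, since this probe set passed the filter only through its present calls on days 1 and 3. Fitted one by one, its 4 tested probe sets had log2 changes of 0.87 to 1.96 on day 1 and 1.41 to 2.81 on day 3. A further probe set, 1434519_at, did not pass the filter. Ddah1 is among the genes counted above as called higher on both days, and that count shares the limit of the filter. Its relative Ddah2 was not called, at -0.33 and -0.45. The subunits of soluble guanylate cyclase, the NO receptor, fell on both days. Gucy1a1 fell by 1.36 ± 0.20 (adjusted p = 0.000622) and 0.90 ± 0.20 (adjusted p = 0.00655), and Gucy1b1 fell by 0.93 ± 0.14 (adjusted p = 0.000845) and 0.88 ± 0.14 (adjusted p = 0.001). The other probe sets of Gucy1a1 moved less, at -0.54 and -0.49 on day 1 and -0.38 and -0.07 on day 3.

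Of 13 tested genes of polyamine regulation, catabolism and transport, 2 were called higher and 1 lower on day 1, and 4 higher and 1 lower on day 3. The higher ones on each day include Slc3a2, which was also counted among the arginine transport genes above. Smox, the spermine oxidase that turns spermine back into spermidine, gave 437, 474 and 531 on day 0. Day 1 signals were 3749, 2268 and 2291, and day 3 signals were 1245, 1448 and 1300. It rose 5.62-fold on day 1 (log2 2.49 ± 0.18, adjusted p = 3.95e-06) and stood 2.77-fold above day 0 on day 3 (1.47 ± 0.18, adjusted p = 0.000183), and the days did not overlap. By this probe set Smox fell by 1.02 ± 0.18 between days 1 and 3 (adjusted p = 0.00443). The second Smox probe set, 1446509_at, was called higher on both days, at 1.87 ± 0.23 and 1.72 ± 0.23, but its difference of -0.15 ± 0.23 between them was not called. With the mean of both probe sets the decrease was 0.59 (adjusted p = 0.0486).

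Among the remaining genes of this group, Atp13a2, a lysosomal polyamine exporter, did not differ on day 1 by the test (-0.01 ± 0.16) and rose by 0.89 ± 0.16 on day 3 (adjusted p = 0.00197). Slc18b1, a vesicular polyamine transporter, fell by 0.77 ± 0.18 on day 1 (adjusted p = 0.00939), a call that was lost after quantile normalization (-0.55). Mtap, which salvages the methylthioadenosine left by spermidine and spermine synthesis, changed by 0.47 ± 0.15 on day 3 (adjusted p = 0.0426), a call that was lost without replicate 1 or 3 of day 0 or any day 3 array (0.42 to 0.49), without the detection filter or without the variance trend. The other 3 probe sets of Mtap stood at 0.18 to 0.32 and were not called, and the mean of all 4 was 0.32 and was not called. Azin1, the antizyme inhibitor that protects ornithine decarboxylase, was chosen after its values were seen. It was lower on day 3, with a log2 change of -0.34 ± 0.10 (adjusted p = 0.0319). This call was lost without the variance trend, and without replicate 2 or 3 of day 0 or any day 3 array (-0.35 to -0.28). Of its other probe sets fitted one by one, 1430984_at was called on day 3 (-0.53 ± 0.17) and 1450714_at was not (-0.24 ± 0.13). Oaz1, the antizyme that sends ornithine decarboxylase to the proteasome, was not called, at -0.18 ± 0.08 and -0.04 ± 0.08. Adi1, a methionine salvage enzyme, was not called either (-0.39 and -0.14).

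The remaining lists cover the downstream uses of polyamines and ornithine. The eIF5A group, whose protein receives hypusine from spermidine, had 4 tested genes, of which limma called 0 on either day. Also 0 had an unadjusted p under 0.05, and 0 passed the test named in the methods with its 2-fold limit. Eif5a stood at 0.12 ± 0.09 and 0.14 ± 0.09 and Eif5a2 at -0.23 ± 0.15 and 0.03 ± 0.15. For Eif5a this depended on the probe set and the scaling: 1437859_x_at, which can cross-hybridize, changed by 0.40 ± 0.13 on day 1 and was called when fitted one by one, and after quantile normalization the day 3 change was 0.29 and was called (adjusted p = 0.0398). Of 4 tested genes of proline synthesis from ornithine and glutamate, Aldh18a1, the synthase of the shared intermediate, was called on day 3 (0.67 ± 0.11, adjusted p = 0.00156). Its brightest probe set can cross-hybridize, and without such probe sets the change was 0.27 and was not called. Oat, the ornithine aminotransferase that leads from ornithine towards proline, was not called (0.15 and -0.28), nor was Aldh4a1 (-0.47 and -0.33).

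**Figure D4:**
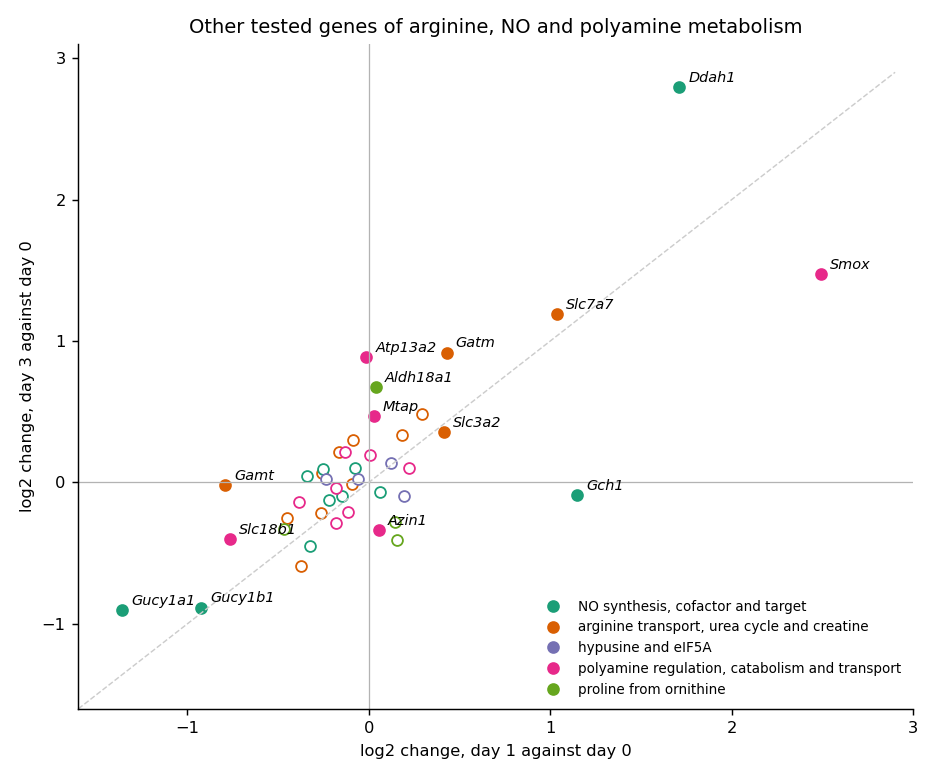
Log2 change from day 0 on day 1 (horizontal) and day 3 (vertical) of the 44 other tested genes of the pathways, coloured by group; filled points were called on at least 1 day and the dashed line marks equal changes. Smox lay furthest to the right, at 2.49 on day 1 and 1.47 on day 3, and Ddah1 highest, at 1.71 and 2.79.

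The cell mixture of the SVF differed between the days as well, as read from marker lists. Of 7 tested neutrophil markers 6 were called higher on day 1 and 5 on day 3, and the summed signal of the list went from 1838 to 2037 on day 0 to 40104 to 70289 on day 1 and 9059 to 20157 on day 3. S100a8 rose by 6.22 and 4.11 on the log2 scale, and Camp was absent on all arrays. Of 5 tested monocyte markers 4 were called higher on both days, and their summed signal was 18531 to 20343 on day 0, 40225 to 47898 on day 1 and 29149 to 29443 on day 3. The macrophage list moved less, with 5 of 10 markers called higher and 1 lower on each day, and summed signals of 60837 to 69487, 77022 to 94369 and 77311 to 94704. These lists were higher on the same days as Arg1 and Arg2. The neutrophil and monocyte sums on day 3 lay below those on day 1, as did the Arg2 signals, whereas the Arg1 signals of days 1 and 3 overlapped. The part of these cells in the arginase signals was not tested.

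Markers of macrophage activation, the setting in which Arg1 and Nos2 are best known, did not all go with Arg1. Of 7 tested markers of alternative activation 1 was called higher (Mrc1) and 2 lower on day 1, and 1 higher and 3 lower on day 3. Retnla, a secreted protein of alternatively activated macrophages, fell by 0.81 and 1.66 while Arg1 went from absent on all day 0 arrays to present on all later ones. The mean log2 signal of the list lay -0.31 to -0.12 from day 0 on day 1 and -0.84 to -0.56 on day 3. Of 9 tested markers of classical activation 7 were called higher and 1 lower on day 1, and 3 higher and 1 lower on day 3, with list means of 0.82 to 1.03 and 0.00 to 0.33. Il1b and Tnf, inflammatory cytokines, were among those higher on both days, at 2.87 and 2.06 for Il1b and 2.39 and 1.58 for Tnf, while Nos2 stayed undetected.

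Beside the lower Sat1 signal of day 3, the leukocyte list was lower on that day: 3 of its 5 markers were called lower, with list means of -0.51 to -0.26. On day 1, by contrast, 1 marker was called higher and the means of -0.14 to 0.12 overlapped with day 0. The endothelial list was lower on day 1, with 5 of 8 markers called and list means of -0.59 to -0.54, beside the lower Gucy1a1 and Gucy1b1 signals. On day 3, 3 of the 8 were called lower and the list means of -0.42 to -0.19 overlapped with those of day 0 (-0.26 to 0.20), while Gucy1b1 stood at -0.88. The stromal list mean was lower on both days, at -0.40 to -0.27 and -0.30 to -0.17. Of its 10 markers 4 were called lower on day 1, and 5 lower and 1 higher on day 3. The part of these cells in the signals of Sat1, Gucy1a1 and Gucy1b1 was not tested, and no marker list of pericytes or smooth muscle cells was made.

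**Figure D5:**
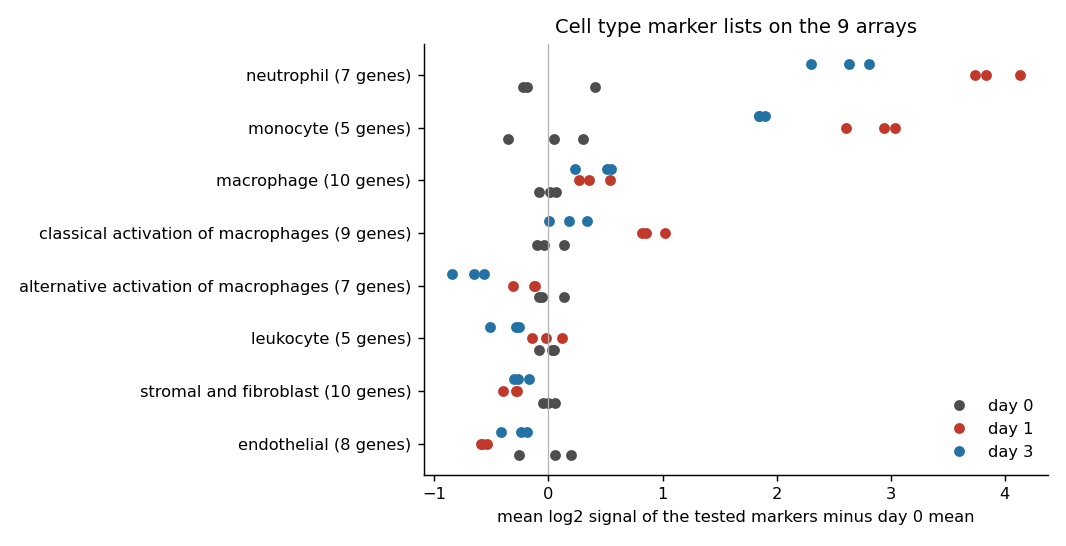
Mean log2 signal of the tested markers of 8 lists (rows) minus the day 0 mean (horizontal axis); each point is 1 array. The neutrophil list lay at 3.74 to 4.13 on day 1 and 2.31 to 2.81 on day 3, and the alternative activation list at -0.84 to -0.56 on day 3.

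The genes most like each member over the 9 arrays were ranked by Pearson's r among all tested genes. For Arg1 they were Cxcl5, a neutrophil-attracting chemokine (0.99), Cyp7b1, an oxysterol hydroxylase (0.988), Fcer1g, the shared gamma chain of Fc receptors (0.987), Tbc1d9 (0.987) and Ctsc, the protease cathepsin C (0.986). For Arg2 they were AA467197 (0.996), Hilpda, a lipid droplet protein induced by hypoxia (0.995), and Clec4d, a lectin receptor of myeloid cells (0.994). For Slc7a2 they were Pappa2 (0.946), 4930579K19Rik (0.933) and Ephx4 (0.926), and for Odc1 Cadps2 (0.891), the amino acid transporter Slc38a2 (0.887) and Ndufaf7 (0.877). The points of each r share the day differences and the scaling of the arrays. Among the members themselves Srm had an r of 0.833 with Arg1 and of -0.658 with Sat1.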

How the data were processed

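The authors hybridized RNA on Affymetrix Mouse430_2 arrays and deposited, per array, a MAS5 signal intensity (linear, scaled to a trimmed mean of 500), a detection call and a detection p-value. The MAS5 version is not given in the sources used here, and no genome build is named. Groups came from the labels. Signals on the log2 scale, with nothing added, entered limma 3.58.1 (eBayes with a variance trend) in R 4.3.3 (data.table, version 1.17.8), with day as the only factor and 6 residual degrees of freedom. Each gene was read from its brightest probe set with 1 symbol that had 3 present calls on some day. Tests were two-sided, adjusted over 11796 genes. The fit was tested on simulated data. Precision is limited by 3 arrays per day.

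The members, the pathway and marker lists and the tests were chosen with earlier results of these data known. Named were all members, up to 4 called genes with the largest change and up to 2 others per pathway list, and the 3 or 5 most alike genes. Of the marker lists those moving with a member's result were described. The T cell list, the B cell list, the list of mast cells and eosinophils and the adipocyte list had 3, 2, 0 and 0 markers called lower on day 1. On day 3 they had 3, 2, 3 and 2. The list of mast cells and eosinophils also had 2 of 6 tested markers called higher on day 1, with list means of 0.23 to 0.78. The stromal list had 4 lower on day 1, and 5 lower and 1 higher on day 3. The muscle, epithelial and erythroid lists had no calls. Planned balances of Arg1 with Nos2 and of Srm with Sms could not be formed. Alternatives were other scalings, offsets, filters, probe set choices and variance models, a replicate block, the methods' ANOVA and leaving out each array.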

Additional observations from a re-analysis of the deposited data

How the results depend on the processing

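No member changed direction among those called, and Arg1 and Arg2 were called on both days in every fit in which they were tested. With presence required on all 9 arrays, 1 member was called on day 1, since Arg1, absent on day 0, was not in that fit. With a 2-fold limit beside the adjusted p, which is stricter by construction, 2 members were called on day 3 and 0 from day 1 to day 3, and the same held for the methods' ANOVA in its one-way and its repeated-measurements form. The genes called on day 1, on day 3 and between them then fell from 3378, 3074 and 1676 to 826, 934 and 434 with the 2-fold limit, 752, 860 and 445 with the one-way and 697, 794 and 417 with the repeated ANOVA, and the pathway genes from 9, 11 and 7 to 5, 3 and 3 under each of these. Leaving out each array gave 1877 to 4548, 1889 to 3618 and 749 to 2823 genes, 2 to 2, 3 to 4 and 1 to 1 members, and 8 to 12, 8 to 11 and 6 to 10 pathway genes. The cause of these shifts was not tested. A replicate block called 3509, 3157 and 1746 genes, 2, 4 and 1 members and 9, 10 and 8 pathway genes, with the day 3 call of Mtap lost. The main fit had no such block, since each array held 1 mouse of 1 day. Same-numbered arrays had residual correlations of -0.15 to 0.33, and other pairs of different days -0.40 to 0.31. Of the same-numbered pairs 2 of 9 were over 0.1, and 4 of 9 arrays were closest to their own number. These values cannot decide on pairing, because residuals centred on 3 arrays per day depend on each other. Weak signals limit Ass1, and Nos2 was not detectable.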
